A study of Mus musculus with 6 samples.

Results

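Secreted growth factors of wound repair, 9 in all, were followed as transcripts in mouse macrophages that met the yeast Candida albicans: the epidermal growth factor (EGF) family ligands Hbegf, Areg and Ereg, the platelet-derived growth factor (PDGF) chains Pdgfa and Pdgfb, insulin-like growth factor 1 (Igf1), transforming growth factor beta 1 (Tgfb1), the activin A subunit gene Inhba and vascular endothelial growth factor C (Vegfc). The members were chosen by gene name, and all 9 had a row among the 54532 genes of the authors' table. RNA was sequenced from 6 samples of primary macrophages of WT genotype. Cells of 3 samples had received vehicle and cells of 3 had received rmMETRNL, a treatment named for the secreted protein METRNL (meteorin-like), for 6 h in culture, and all 6 samples then met Candida albicans for 6 h. Both groups therefore carry the fungal challenge, and no unchallenged sample was compared here. The dose of rmMETRNL, the strain and age of the mice, the tissue the macrophages came from and whether the 3 samples of a group were separate animals or cultures are details that the sources used here do not give, so the p-values reflect only how far these samples vary, and that variation may be technical. Columns of the table carry short names, and those with the first letter of rmMETRNL were read as the treated samples. Every direction below rests on that reading.

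Macrophages at a wound first clear microbes and debris and then send growth factors to the epithelium, fibroblasts and vessels that rebuild the tissue. EGF family ligands are made as membrane-bound precursors that proteases cut free, and they act on ERBB receptors of neighbouring cells. PDGF recruits fibroblasts and vessel wall cells, Igf1 supports growth and survival of repairing tissue, and VEGF-C acts mainly on lymphatic vessels. TGF-beta 1 is secreted in a latent form that must be activated, drives matrix production and restrains inflammation, and activin A, a dimer of the Inhba product, signals through related receptors and SMAD proteins and is held in check by follistatin.

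The libraries held 13235001 to 18145733 reads (or read pairs), recovered from the deposited values as described under processing. Levels are in FPKM, fragments per kilobase of gene scaled to library size, which allows levels of different genes to be compared. All 12 macrophage markers checked were at 1 FPKM or more, with a summed level of 9773 to 10330 FPKM in vehicle libraries and 9541 to 9837 FPKM in rmMETRNL libraries. Lysozyme gene Lyz2 stood at 5460 ± 382 and 5567 ± 139 FPKM and the lipopolysaccharide co-receptor gene Cd14 at 2647 ± 62.0 and 2298 ± 53.4 FPKM (vehicle and rmMETRNL, mean ± SD, n = 3 each, as for every pair of means below). The extraction text of the labels speaks of retinas, but 6 retina markers summed to between 0.446 and 0.855 FPKM in any library, Crx was at 0 in all libraries, and Pde6b (0.351 ± 0.0687 and 0.522 ± 0.170 FPKM) and Sag (0.101 ± 0.0365 and 0.158 ± 0.0196 FPKM) were the highest of them.

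The 9 growth factor genes spanned more than 3 orders of magnitude in level, and Inhba was the highest. Averaged over the 6 libraries it stood at 1072 FPKM, rank 38 of all genes in the table, and made up 74.3% to 81.8% of the summed FPKM of the 9 genes in each library. Hbegf (121 FPKM) and Tgfb1 (107 FPKM) followed, then Pdgfb (21.2 FPKM), Pdgfa (19.6 FPKM) and Igf1 (15.2 FPKM). Areg was low at 2.42 FPKM, and Ereg (0.501 FPKM) and Vegfc (0.432 FPKM) were barely seen.

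**Figure D1:**
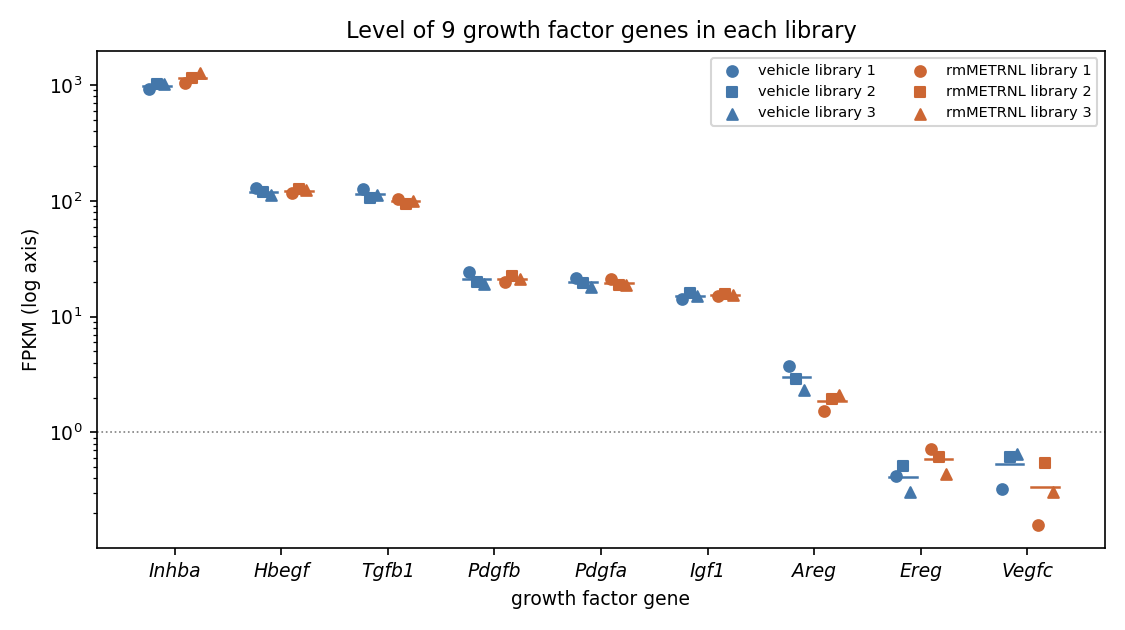
Level of each of the 9 growth factor genes in FPKM on a log axis, with 1 point per library (blue for vehicle, orange for rmMETRNL, shape for the library number) and a line at each group mean. Inhba lies near 1072 FPKM, Ereg and Vegfc lie under the dotted line at 1 FPKM, the lowest mean level tested, and the groups of Inhba, Tgfb1 and Areg do not overlap.

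The order of most neighbours was the same in each library, and 3 pairs could not be ordered beyond their spread. Hbegf lay above Tgfb1 in 5 of 6 libraries, with ranges of 112 to 128 and 93.5 to 125 FPKM. Pdgfb lay above Pdgfa in 5 of 6 libraries, with ranges of 19.0 to 24.4 and 18.1 to 21.8 FPKM, and Ereg above Vegfc in 4 of 6. The place of Hbegf may also depend on its gene model. The table gives it a length of 2373 bases, whereas the GENCODE M21 exons of the gene cover 4834 bases. Scaled to that length with the reads held fixed, its values become 55.2 to 62.8 FPKM, below Tgfb1 in every library. Reads were not counted anew over those exons, so its level under that model is not known. Exon lengths of the other 8 genes were equal in both sources.

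The comparison asked whether macrophages that had received rmMETRNL before the fungus differ in these transcripts from those that had received vehicle. None of the 7 genes tested passed, and Ereg and Vegfc were too low to be tested. Inhba values were higher with rmMETRNL (1.17-fold) and Tgfb1 (0.866-fold) and Areg (0.724-fold) values lower, each with groups that did not overlap, while Hbegf, Pdgfa, Pdgfb and Igf1 had folds of 0.990 to 1.03. These folds and all log2 fold changes are differences of log2(FPKM + 1), which understates the change of low genes.

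Testing covered the 9867 genes that averaged 1 FPKM or more, with limma and Benjamini-Hochberg adjustment over all of them. At an adjusted p of 0.05 limma called 0 of the 7 growth factor genes tested and 0 (0%) of all genes, whose lowest adjusted p was 0.103. Unadjusted p-values were under 0.05 for 3 of the 7, Areg, Tgfb1 and Inhba, against 1448 genes (14.7%) overall. A second tool, limma voom on the recovered reads, called 61 genes (0.618%) and 0 of the 7, with a lowest adjusted p of 0.126 for Inhba. The median log2 fold change of the 7 was 0.01, beside -0.01 over all tested genes, and the median of their absolute log2 fold changes was 0.04, beside 0.09.

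**Figure D2:**
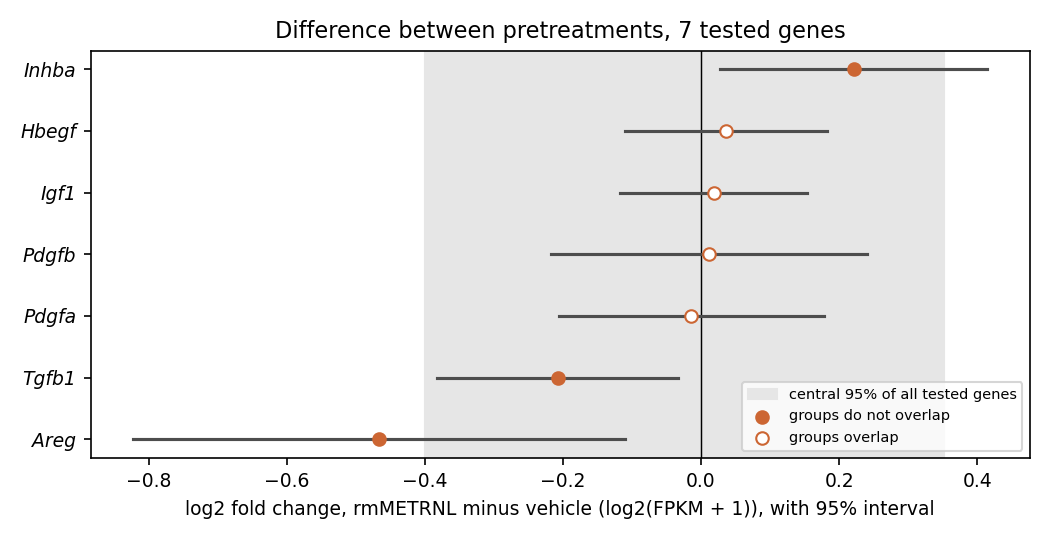
Log2 fold change of the 7 tested growth factor genes (rmMETRNL minus vehicle, on the log2(FPKM + 1) scale) with the 95% interval from limma, over a grey band that holds the central 95% of all 9867 tested genes. Inhba, Tgfb1 and Areg have intervals that do not reach 0 and filled points for groups that do not overlap, and 6 of the 7 points, all but Areg, lie inside the grey band.

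Inhba encodes the beta A subunit, and a pair of these makes activin A (ENSMUSG00000041324, chromosome 13, 16011851 to 16031621, plus strand, GRCm38). Its level was 920.2, 1018 and 1029 FPKM in vehicle libraries 1, 2 and 3 and 1042, 1159 and 1264 FPKM in rmMETRNL libraries 1, 2 and 3. All 3 treated libraries lay above all 3 vehicle libraries, but rmMETRNL library 1 exceeded the highest vehicle library by only a small margin. Group means were 989 ± 59.8 and 1155 ± 111 FPKM. The log2 fold change in limma was 0.22 (95% interval 0.03 to 0.41, SE 0.08, adjusted p = 0.306). Between 86929 and 119743 reads lay behind each value, so counting error was 0.321% of the level or less on average in either group, far under the spread between libraries of 6.04% with vehicle and 9.59% with rmMETRNL.

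The highest Inhba value came from rmMETRNL library 3. Across genes, the deviation of that library from the mean of all libraries correlated with gene length (r = 0.203, across genes, which are not independent replicates), where the other 5 libraries lay between -0.140 and 0.0534, and Inhba is long at 6390 exon bases. With each library's length trend removed, a setting chosen after seeing the data, the log2 fold change was 0.21 (adjusted p = 0.289 in limma), and without rmMETRNL library 3 it was 0.15 (adjusted p = 0.518).

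Tgfb1 encodes transforming growth factor beta 1 (ENSMUSG00000002603, chromosome 7, 25687002 to 25705077, plus strand). It stood at 125, 106 and 113 FPKM in vehicle libraries 1, 2 and 3 and at 103, 93.5 and 100.2 FPKM in rmMETRNL libraries 1, 2 and 3. The treated libraries all lay below the vehicle libraries, with vehicle library 2 and rmMETRNL library 1 nearly touching. Means of 115 ± 9.98 and 98.97 ± 5.00 FPKM gave a limma log2 fold change of -0.21 (95% interval -0.38 to -0.03, SE 0.07, adjusted p = 0.293), and -0.14 without vehicle library 1, the highest of the 6. Set against each other within a library, Inhba was 7.34, 9.63 and 9.12 times as abundant as Tgfb1 in vehicle libraries 1, 2 and 3 and 10.1, 12.4 and 12.6 times in rmMETRNL libraries 1, 2 and 3. This ratio was formed after the values were seen and joins the members at opposite ends, so no test is given for it. In bulk RNA, fewer cells of a type and less RNA per cell cannot be told apart.

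Areg encodes amphiregulin, an EGF receptor ligand made by several immune cell types during tissue repair (ENSMUSG00000029378, chromosome 5, 91139599 to 91148432, plus strand). Its level was 3.75, 2.89 and 2.31 FPKM in vehicle libraries 1, 2 and 3 and 1.54, 1.94 and 2.11 FPKM in rmMETRNL libraries 1, 2 and 3. Every treated value was below every vehicle value, although vehicle library 3 and rmMETRNL library 3 were close. Means were 2.98 ± 0.726 and 1.86 ± 0.295 FPKM. The log2 fold change in limma was -0.47 (95% interval -0.82 to -0.11, SE 0.15, adjusted p = 0.273). Few reads lay behind these values, 47 to 69 in a vehicle library and 29 to 38 in a treated one. Exact Poisson 95% intervals, which cover counting error only, were 1.72 to 3.03 FPKM in vehicle library 3 and 1.49 to 2.90 FPKM in rmMETRNL library 3, so these libraries cannot be separated at this depth. Without vehicle library 1 the log2 fold change was -0.33, and on the recovered reads voom gave -0.64 (adjusted p = 0.276).

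The groups of Inhba, Tgfb1 and Areg did not overlap, 3 of the 7 tested members, where 21.5% of all tested genes had such groups (10.9% higher with rmMETRNL and 10.6% lower). Their upstream sequence is shown because of that outcome, although none passed the test, and because the start regions differ in kind. RefSeq promoter sequence of GRCm38.p6 was held for 6 of the 9 genes, and the 250 bases before the gene start were searched on both strands. The element through which cyclic AMP signals act, the CRE, was spelled TGACGTCA. The site bound by Jun and Fos dimers, AP-1, was spelled TGANTCA and overlaps with no other motif searched. For the box that places the start of transcription, the TATA box, the search used the letters TATAAA. Binding sites of Sp family factors, known as GC boxes, were searched for with the letters GGGCGG. The core of hypoxia response elements was searched for as ACGTG, and sites of NF-kappaB by the kappaB consensus. The windows lie at chr13:16011601-16011850, chr7:25686752-25687001 and chr5:91139349-91139598, all on the plus strand, and capitals mark the matches.
Inhba: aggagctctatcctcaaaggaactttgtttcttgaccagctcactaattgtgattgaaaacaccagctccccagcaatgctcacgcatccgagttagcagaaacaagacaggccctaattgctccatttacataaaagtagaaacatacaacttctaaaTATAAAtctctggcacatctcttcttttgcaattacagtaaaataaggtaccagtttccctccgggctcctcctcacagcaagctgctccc
Tgfb1: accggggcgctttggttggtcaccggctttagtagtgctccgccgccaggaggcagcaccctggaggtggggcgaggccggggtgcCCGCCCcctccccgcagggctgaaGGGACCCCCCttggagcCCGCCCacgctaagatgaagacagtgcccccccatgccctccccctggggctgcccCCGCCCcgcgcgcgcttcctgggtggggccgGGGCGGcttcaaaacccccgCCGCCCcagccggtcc
Areg: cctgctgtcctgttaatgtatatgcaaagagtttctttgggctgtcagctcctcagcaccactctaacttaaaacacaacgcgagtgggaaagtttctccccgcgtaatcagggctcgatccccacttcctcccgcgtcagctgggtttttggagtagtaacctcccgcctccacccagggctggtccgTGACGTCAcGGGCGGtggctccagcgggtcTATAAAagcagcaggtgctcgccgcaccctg
Areg carried a full CRE 61 to 54 bases before the gene start, a GC box 52 to 47 bases before it and a TATA box 31 to 26 bases before it. Of 32851 promoter windows of the same length, 1.55% held the CRE, 12.4% the TATA box and 32.7% the GC box. Inhba held 1 TATA box match, 91 to 86 bases before the start, in a window of 43.2% G and C. Tgfb1 held 5 GC boxes and 1 kappaB match (7.25% of windows) in a window of 75.2% G and C. No match to AP-1 (6.75% of windows) or the hypoxia core (16.6%) lay in these 3 windows. Members whose groups overlapped shared some of these features. Pdgfa had 2 windows, and its second held 2 GC boxes and 1 kappaB match at 72.4% G and C. The Vegfc window held 2 GC boxes at 71.6% G and C, and that of Igf1 held 1 AP-1 match. A match is a description of letters and not a measured binding site.

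Hbegf encodes heparin-binding EGF-like growth factor, which macrophages shed to stimulate keratinocytes and smooth muscle cells (ENSMUSG00000024486, chromosome 18, 36504929 to 36515805, minus strand). It stood at 128, 119 and 112 FPKM in vehicle libraries 1, 2 and 3 and at 117, 128 and 124 FPKM in rmMETRNL libraries 1, 2 and 3. The groups lay across each other, with means of 119.7 ± 7.79 and 122.7 ± 5.53 FPKM (log2 fold change 0.04, SE 0.06, adjusted p = 0.825 in limma). The 95% interval of the fold ran from 0.927 to 1.13.

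Ereg encodes epiregulin and lies next to Areg on chromosome 5 (ENSMUSG00000029377, 91074622 to 91093646, plus strand). It was not tested, with a mean under 1 FPKM, at 0.416, 0.507 and 0.306 FPKM in vehicle libraries 1, 2 and 3 and 0.717, 0.617 and 0.441 FPKM in rmMETRNL libraries 1, 2 and 3. Its groups overlapped, and 23 to 46 reads lay behind each value. Fitted without the filter on low values, its log2 fold change was 0.17 (adjusted p = 0.738 in limma), opposite in sign to that of Areg, and the difference between these genes was not tested.

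Pdgfa and Pdgfb encode the A and B chains that pair to form PDGF. Pdgfa (ENSMUSG00000025856, chromosome 5, 138976014 to 138997370, minus strand) stood at 21.8, 19.4 and 18.1 FPKM in vehicle libraries 1, 2 and 3 and at 21.1, 18.9 and 18.6 FPKM in rmMETRNL libraries 1, 2 and 3. Pdgfb (ENSMUSG00000000489, chromosome 15, 79995874 to 80014977, minus strand) stood at 24.4, 20.03 and 19.0 FPKM with vehicle and at 20.1, 22.3 and 21.2 FPKM with rmMETRNL, in the same library order. For both genes the groups overlapped and vehicle library 1 was the highest of the 6. The log2 fold changes were -0.01 (SE 0.08, adjusted p = 0.955) and 0.01 (SE 0.10, adjusted p = 0.971) in limma, and the 95% intervals of the fold were 0.867 to 1.13 for Pdgfa and 0.860 to 1.18 for Pdgfb. Pdgfa shares 26.1% of its exon bases with 6330403L08Rik, an antisense gene at 1.99 ± 0.517 and 1.60 ± 0.476 FPKM, and without a stated strand setting the reads of the pair cannot be told apart.

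Igf1, the growth factor also known from alternatively activated macrophages (ENSMUSG00000020053, chromosome 10, 87858265 to 87937042, plus strand), differed little between libraries. Its values were 14.1, 16.00 and 15.2 FPKM in vehicle libraries 1, 2 and 3 and 15.1, 15.6 and 15.2 FPKM in rmMETRNL libraries 1, 2 and 3. All treated values lay inside the vehicle range, with a limma log2 fold change of 0.02 (adjusted p = 0.913, SE 0.06) and a 95% interval of the fold of 0.922 to 1.11. Vegfc, the lymphatic growth factor gene (ENSMUSG00000031520, chromosome 8, 54077606 to 54187096, plus strand), was not tested. It stood at 0.323, 0.611 and 0.650 FPKM with vehicle and 0.158, 0.546 and 0.303 FPKM with rmMETRNL, on 6 to 29 reads per library. Its groups overlapped (log2 fold change -0.20 without the filter, adjusted p = 0.753 in limma), and the spread between libraries (33.8% and 58.5% of the mean) exceeded the counting error (23.3% and 30.9%).

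Genes that make, release or receive these signals were taken from 11 lists of their pathways. Outside the 9 genes the lists held 103 genes, of which 50 were tested, 32 with a positive log2 fold change (64%, beside 48.4% of all tested genes) and 18 with a negative one. Limma called 0 of the 50 (lowest adjusted p = 0.189), and voom called 1, Adam8. Their groups did not overlap in 16 (32%), 12 higher and 4 lower with rmMETRNL, beside 21.5% of all tested genes. Their median log2 fold change was 0.02.

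**Figure D3:**
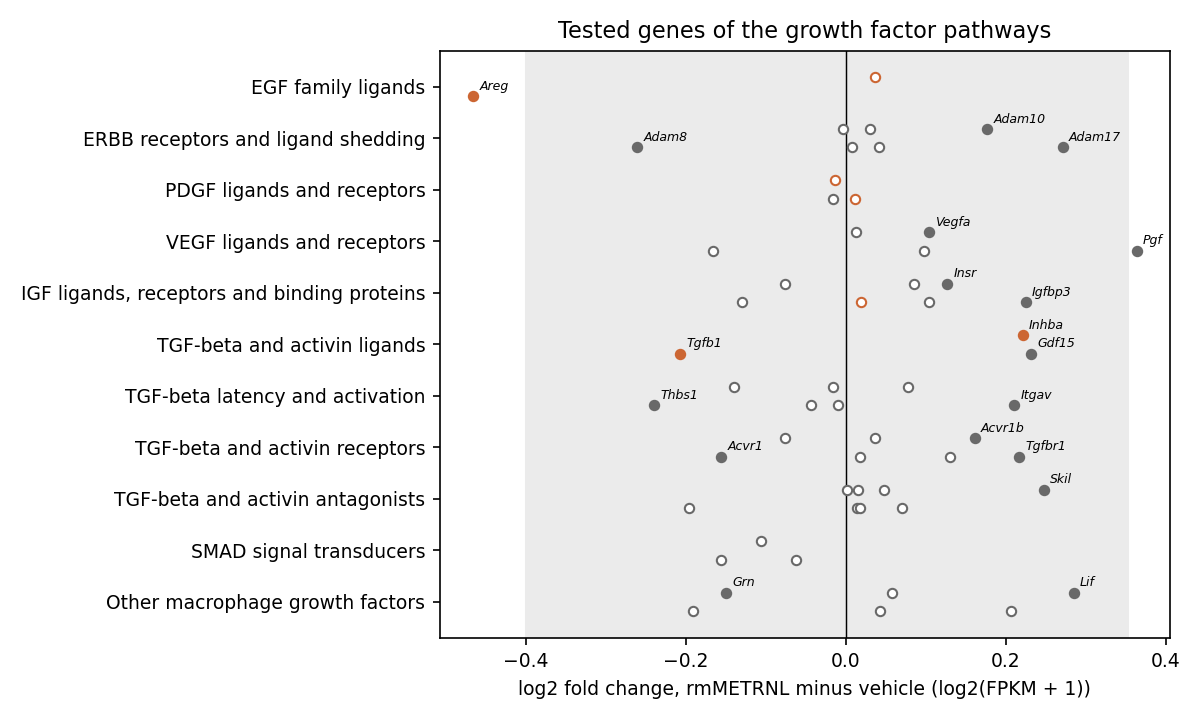
Log2 fold change (rmMETRNL minus vehicle, log2(FPKM + 1)) of each tested gene of the 11 pathway lists, orange for the growth factor genes described and grey for the others, filled and named where the groups do not overlap, with Furin in 2 lists. The grey band holds the central 95% of all tested genes, and Areg on the left and Pgf on the right are the points outside it.

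Among EGF family ligands, 2 of 11 were tested, Hbegf and Areg. Neither of the classical ligand genes Egf and Tgfa reached 0.05 FPKM on average. The untested ligand gene Nrg1 (neuregulin 1) stood at 0.344 ± 0.0317 and 0.184 ± 0.0443 FPKM and Egf at 0.0228 ± 0.00468 and 0.00576 ± 0.00565 FPKM. Each had treated values wholly below vehicle values. Egf was near the floor, at 0 in rmMETRNL library 1. Nrg1, with a length of 10351 bases, rests on more reads than a shorter gene of the same FPKM, but its difference was not tested. The other untested ligand genes Tgfa, Ereg, Epgn, Btc, Nrg2 and Nrg4 had overlapping groups, and Nrg3 was at 0 in all libraries. Under the level tested were also all 4 receptor genes, Egfr (0.269 FPKM), Erbb2 (0.0801 FPKM), Erbb3 (0.358 FPKM) and Erbb4 (0 in all libraries). The machinery that cuts the ligands free was present. Adam17, the main sheddase of Hbegf and Areg, stood at 32.1 ± 2.11 and 38.95 ± 2.60 FPKM (log2 fold change 0.27, SE 0.07, adjusted p = 0.238 in limma, 0.0666 in voom), with every treated library above every vehicle library. Adam8, another membrane metalloprotease, stood at 402 ± 22.3 and 335 ± 5.87 FPKM (log2 fold change -0.26, SE 0.05, adjusted p = 0.189 in limma) and fell in voom (adjusted p = 0.0294). Rhbdf2, which encodes the iRhom2 cofactor of ADAM17, stood at 54.7 ± 4.34 and 54.6 ± 3.23 FPKM.

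In the TGF-beta and activin family, 3 of 9 ligand genes were tested, Tgfb1, Inhba and Gdf15, and none passed. Gdf15, a stress-induced distant member of the family, stood at 633 ± 26.4 and 744 ± 33.2 FPKM (log2 fold change 0.23, SE 0.05, adjusted p = 0.209 in limma). Inha and Inhbb, which encode subunits that could pair with the Inhba product, had means of 0.0224 and 0.00792 FPKM. The further subunit genes Inhbc and Inhbe were at 0 in all libraries. Of the receptor and co-receptor genes of this family 7 of 10 were tested and 0 passed. Acvr1b, the type I receptor gene for activin, stood at 26.7 ± 0.343 and 30.1 ± 2.29 FPKM, Tgfbr1, that for TGF-beta, at 5.13 ± 0.280 and 6.13 ± 0.465 FPKM, and Acvrl1, an endothelial type I receptor gene, at 19.0 ± 0.436 and 20.9 ± 2.09 FPKM.

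Genes that activate latent TGF-beta lay on both sides. Thbs1, which encodes the activator thrombospondin 1, stood at 147 ± 6.84 and 125 ± 12.7 FPKM, and Itgav, the alpha V chain of activating integrins, at 34.5 ± 2.19 and 40.1 ± 3.45 FPKM. Furin, the protease that matures Tgfb1 and other precursors, stood at 84.4 ± 4.85 and 83.5 ± 5.60 FPKM. In this list of latency and activation genes 7 of 11 were tested and 0 passed.

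Antagonist genes had 8 of 11 tested and 0 called, and 7 of the 8 had positive values with a median of 0.02. Fst, the activin-binding follistatin gene, was low at 1.83 ± 0.302 and 1.48 ± 0.374 FPKM, Ski, a SMAD corepressor gene, stood at 16.4 ± 0.436 and 16.6 ± 0.804 FPKM, and its relative Skil at 14.2 ± 0.515 and 17.1 ± 1.14 FPKM (log2 fold change 0.25, SE 0.06, adjusted p = 0.233 in limma). The SMAD transducer genes Smad2 (9.93 ± 0.539 and 9.15 ± 0.458 FPKM), Smad3 (5.26 ± 0.443 and 4.63 ± 0.607 FPKM) and Smad4 (30.4 ± 0.834 and 29.2 ± 2.03 FPKM) all had negative log2 fold changes with overlapping groups, and 0 of 3 passed.

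Vegfc was a minor member of its family in these cells. Vegfa, the main angiogenic ligand gene, stood at 189 ± 5.93 and 203 ± 5.63 FPKM (log2 fold change 0.10, SE 0.04, adjusted p = 0.342 in limma), and Pgf, the placental growth factor gene, at 1.96 ± 0.161 and 2.83 ± 0.500 FPKM (log2 fold change 0.36, SE 0.11, adjusted p = 0.268). Both had treated values wholly above vehicle values. The co-receptor gene Nrp2 stood at 24.7 ± 0.940 and 26.5 ± 1.73 FPKM, and the signalling receptor genes Flt1, Kdr and Flt4 were under the level tested. Flt1, at 0.423 ± 0.0573 and 0.260 ± 0.0110 FPKM, was lower in every treated library than in any vehicle library. Kdr and Flt4 had overlapping groups. Of 12 genes of this list with a row, 5 were tested and 0 passed.

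For Igf1, 7 of 13 genes of the family were tested and 0 passed. Igf1r, the gene of the receptor for Igf1, stood at 2.88 ± 0.115 and 2.69 ± 0.161 FPKM (log2 fold change -0.08, SE 0.07, adjusted p = 0.650 in limma). Of the other receptor genes, Igf2r stood at 33.1 ± 2.78 and 35.3 ± 4.16 FPKM and Insr at 1.27 ± 0.0845 and 1.48 ± 0.114 FPKM. The binding protein genes Igfbp3 and Igfbp7 had 1.78 ± 0.0964 and 2.25 ± 0.139 FPKM, and 4.06 ± 0.732 and 4.44 ± 0.827 FPKM. Of PDGF genes 3 of 7 were tested, the 2 chains and Furin, and the receptor genes Pdgfra (0.387 FPKM) and Pdgfrb (0.419 FPKM), which mark fibroblasts and vessel wall cells, were under the level tested. Of 15 other growth factor genes with a row, 6 were tested and 0 passed. Among them Osm (oncostatin M) had 197 ± 8.84 and 205 ± 12.4 FPKM, Lif (leukaemia inhibitory factor) 36.4 ± 3.29 and 44.6 ± 5.45 FPKM and Grn (progranulin) 327 ± 22.6 and 295 ± 11.4 FPKM.

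Markers of other cells that carry such growth factors were looked at for the same libraries. Platelets store PDGF and TGF-beta 1, and the summed level of 6 platelet markers was 56.7 to 71.3 FPKM with vehicle and 78.3 to 84.6 FPKM with rmMETRNL, groups that do not overlap. Almost all of it was Pf4 (60.8 ± 7.26 and 77.4 ± 3.89 FPKM), a chemokine gene that macrophages also express, followed by Ppbp (1.17 ± 0.0651 and 1.21 ± 0.499 FPKM). The defining genes Gp9 (0.396 ± 0.182 and 0.497 ± 0.305 FPKM) and Itga2b (0.216 ± 0.0126 and 0.186 ± 0.0553 FPKM) overlapped between the groups, as did Tubb1 (1.02 ± 0.429 and 1.14 ± 0.28 FPKM). Gp1ba, at 0.0505 ± 0.0312 and 0.242 ± 0.127 FPKM, was higher in every treated library than in any vehicle library, but at a level near the floor. Neutrophil markers summed to 105 to 115 and 117 to 125 FPKM, groups that do not overlap. They were carried by S100a8 (83.7 ± 4.59 and 86.1 ± 0.564 FPKM), with overlapping groups, and S100a9 (24.4 ± 0.781 and 34.8 ± 3.56 FPKM). S100a9 was higher in every treated library than in any vehicle library (log2 fold change 0.49, SE 0.08, adjusted p = 0.151 in limma). Ly6g, Mpo, Camp, Ngp and Cxcr2 were under 1 FPKM with overlapping groups, and Elane was at 0. Mast cell and basophil markers, of interest for Areg, summed to 10.4 to 16.8 and 13.4 to 17.0 FPKM, led by Tpsb2 (6.96 ± 1.74 and 6.75 ± 0.0758 FPKM) and Cma1 (3.36 ± 0.998 and 4.58 ± 1.04 FPKM), and 3 of the 8 reached 1 FPKM. The part of these cells in the values of Tgfb1, Inhba and Areg was not tested.

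For the remaining cell types given here, summed markers overlapped between the groups, except those of B cells. Fibroblast markers summed to 261 to 283 and 271 to 291 FPKM, nearly all from Pdpn (261 ± 12.1 and 271 ± 10.8 FPKM), which activated macrophages also express, then Dcn (4.27 ± 0.259 and 4.30 ± 0.115 FPKM). Endothelial markers summed to 7.57 to 8.37 and 6.84 to 8.04 FPKM, led by Vwf (6.11 ± 0.217 and 5.38 ± 0.301 FPKM) and Cdh5 (1.30 ± 0.248 and 1.24 ± 0.388 FPKM). Vwf was lower in every treated library than in any vehicle library (log2 fold change -0.16, SE 0.06, adjusted p = 0.32 in limma). Epithelial or mesothelial markers summed to 3.92 to 4.16 and 3.14 to 5.00 FPKM, led by Krt19 (2.19 ± 0.184 and 2.08 ± 0.350 FPKM) and Cdh1 (0.633 ± 0.124 and 0.817 ± 0.226 FPKM). Dendritic cell markers, almost all Ccr7 (28.3 ± 1.39 and 27.6 ± 1.42 FPKM) with Zbtb46 next (0.713 ± 0.106 and 0.814 ± 0.0684 FPKM), summed to 28.3 to 30.95 and 27.97 to 30.5 FPKM. B cell markers, led by Cd79a (2.49 ± 0.425 and 2.86 ± 0.274 FPKM) and Cd79b (2.01 ± 0.360 and 2.41 ± 0.343 FPKM), summed to 5.07 to 6.03 and 6.04 to 6.57 FPKM. These sums did not overlap but nearly touched, and each of the 2 genes had overlapping groups. T and NK cell markers summed to 1.31 to 1.52 and 1.17 to 1.83 FPKM, led by Cd4 (0.333 ± 0.0683 and 0.297 ± 0.0339 FPKM) and Cd3d (0.319 ± 0.166 and 0.263 ± 0.0543 FPKM).

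Genes whose level ran most closely with a member over the 6 libraries were listed for the 2 tested members of smallest p, among named genes averaging 5 FPKM or more. For Areg, of 4970 genes compared, these were Rdh11 (Pearson r = 0.980), Atp13a1 (0.968) and Nxf1 (0.966). For Tgfb1, of 4969, they were Cd68 (0.999), Ccdc71l (0.998) and Ap5z1 (0.988). The macrophage lysosomal glycoprotein gene Cd68 had 1446 ± 48.6 and 1359 ± 28.4 FPKM. Such values are a description, since 6 points shared by all genes of the same libraries leave many high correlations among so many genes.

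**Figure D4:**
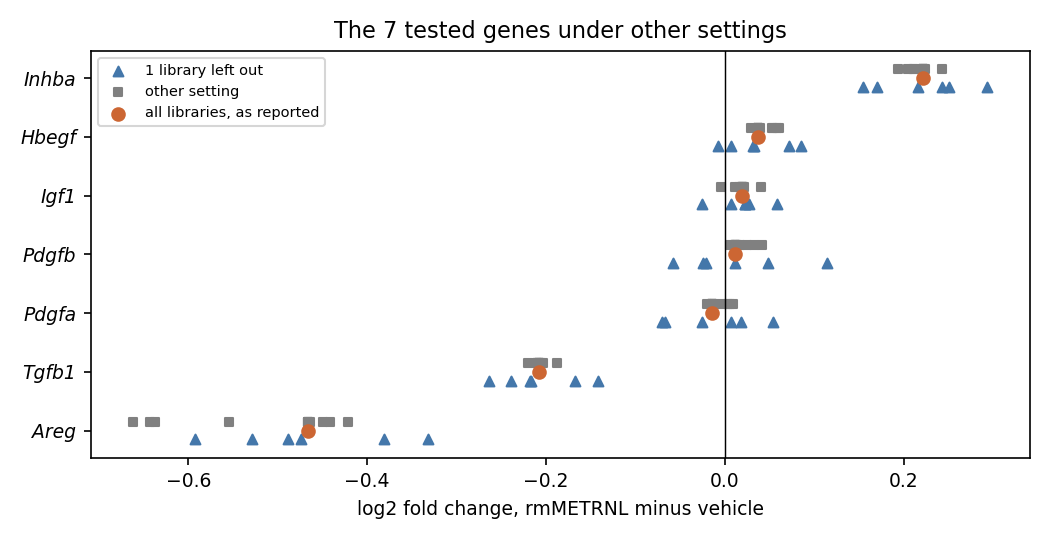
Log2 fold change of the 7 tested growth factor genes with all libraries (orange), with 1 library left out (blue triangles) and under each other setting (grey squares). The values of Inhba stay between 0.15 and 0.29, those of Tgfb1 between -0.26 and -0.14 and those of Areg between -0.66 and -0.33, while Hbegf, Igf1, Pdgfb and Pdgfa fall on both sides of 0.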

How the data were processed

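RNA-seq was measured in 6 samples. GRCm38 and mm10 are the builds in the submitters' processing notes. The authors deposited a single table of FPKM, fragments per kilobase of gene scaled to library size, with gene names, positions and lengths. The sources used here do not give the aligner, counter, annotation release or strand setting. Multiplied by gene length, 100% of the FPKM values in a library were whole multiples of a common step (tolerance 0.05 reads), which gave the reads behind each. At a length of 1 kb, 10 reads equal 0.549 to 0.748 FPKM.

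The test was limma 3.58.1 (R 4.3.3) with a mean-variance trend, fitted to log2(FPKM + 1) of the 9867 genes averaging 1 FPKM or more, 3 vehicle against 3 rmMETRNL samples, two-sided, Benjamini-Hochberg adjusted, threshold 0.05. Voom took the summed reads of the tested genes as library sizes. Named are the 9 members, the 2 genes of smallest p and the 2 most abundant of each pathway list, the 2 most abundant of each marker list, and the genes most alike in pattern. Further receptor, subunit, ligand, platelet and neutrophil genes, most of them under the level tested, were named after their values were seen. Members and lists were chosen with earlier results of these data known. 1 retina marker is not reported here. Promoters are RefSeq's. Exon overlaps and 31-base words come from GENCODE M21, and at most 3.54% of a member's words (Tgfb1) occurred in another gene.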

Additional observations from a re-analysis of the deposited data

How the results depend on the processing

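Other settings were pseudocounts (0.1, 0.01), no filter, at least 5 FPKM, TPM, median-of-ratios or quantile scaling, array weights, no variance trend, the replicate block, protein-coding genes only and leaving out each library. Voom and the removal of the length trend were chosen after seeing the data. Limma called 0 genes with all libraries and in each of the 6 fits that left 1 out, 5 with no filter, 1 with TPM, 1 with array weights and 6 among protein-coding genes, and voom called 61. No growth factor gene was among them. With the replicate block limma called 0 genes (1353 at an unadjusted p of 0.05, against 1448 without it). Same-numbered samples had deviations correlated, across all tested genes, at -0.0212, 0.00741 and -0.0454, so the numbers were not taken as pairs. Single members could still depend on the block. With it the SE fell for Inhba (0.081 to 0.045), Tgfb1 (0.073 to 0.045), Pdgfa (0.081 to 0.047) and slightly for Igf1. It rose for Hbegf, Areg and Pdgfb. Adjusted p-values with the block were 0.308 for Inhba and 0.311 for Tgfb1 in limma. The planned edgeR, DESeq2 and TMM-scaled voom fits were not run.

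Inhba, Tgfb1 and Areg kept their direction under every alternative run (19, 19 and 18), with adjusted p-values of 0.126 to 0.605, 0.130 to 0.531 and 0.153 to 0.506 in limma or voom. For most settings this was fixed in advance. As their groups do not overlap, leaving out 1 library, weighting libraries or changing the pseudocount could not turn the sign. The filters, the variance trend, the replicate block and the protein-coding set leave the fold change itself as it was. The other tested members lay near 0 and turned sign. With 1 library left out, the log2 fold change of Hbegf ranged from -0.0076 (without vehicle library 3) to 0.0849, that of Pdgfa from -0.0709 to 0.0541, that of Pdgfb from -0.0582 to 0.114 and that of Igf1 from -0.0252 to 0.0580. Pdgfa was 0.0062 with TPM, 0.0089 with array weights and 0.0039 with the length trend removed, and Igf1 was -0.0045 with the length trend removed. Ereg ranged from 0.12 to 0.52 and Vegfc from -0.74 to -0.10, the values farthest from 0 coming with the smallest pseudocount.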
